A study of Mus musculus with 12 samples.

Results

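The genes described here encode the nuclear-coded subunits of respiratory complexes I, III and IV and of the mitochondrial ATP synthase (complex V). They were taken as every probe whose platform gene symbol starts with Nduf, Uqcr, Atp5 or Cox4 to Cox8, apart from Cox7a1 and Cox8b. Both were set aside as brown fat genes and are counted with the fat genes below. This gave 111 of the 23863 probes in the value table and 76 of its 12344 named genes. The rule uses symbols and no measured value, but it was set with earlier results of these data known. Complex I held 41 genes (33 subunits, 7 assembly factors and 1 pseudogene), complex III 7, complex IV 12 and complex V 16. Prefixes can mislead, so Ndufa4 is described with complex IV, of which it is a subunit. Cox7a2l is counted with complex IV as an assembly factor. Each gene was represented by its brightest probe, and 26 genes had several. Ndufa4l2, Cox4i2, Cox7b2, Cox8a, Cox8c and Atp5g1, which the same prefixes would take in, could not be analysed here. No probe in the value table was named for any of them alone.

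The samples were total RNA from 12 C57BL/6 mice aged 15 weeks, 4 in each of 3 groups, which the labels describe as cysts throughout and the study's methods as kidneys, from lines backcrossed to this background over several generations. Fh1-/- mice, the single mutants, were homozygous for a conditional Fh1 allele and carried Ksp-Cre, a Cre recombinase driven by the kidney-specific cadherin promoter in renal tubules. Fh1-/-Hif-1α-/- mice were homozygous for conditional alleles of Hif-1α as well, with the same Cre, and are the double mutants. Control animals were littermates that had conditional alleles without Ksp-Cre, or a wild-type allele with it, and the labels do not say which was which. Fh1 encodes fumarate hydratase, the Krebs cycle enzyme that turns fumarate into malate, and Hif-1α is the oxygen-regulated subunit of the hypoxia-inducible factor. The comparisons address how the messages of oxidative phosphorylation stood in whole tissue after Fh1 was deleted in renal tubules, with and without Hif-1α.

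Complex I takes electrons from NADH, complex III passes them to cytochrome c, complex IV hands them to oxygen, and the proton gradient that the complexes build drives complex V to make ATP. All of them lie in the inner mitochondrial membrane, and proximal tubule and thick ascending limb cells, which reabsorb most of the filtered salt, are dense in mitochondria. Hif-1α is known to restrain respiration in hypoxic cells through a few switches, among them exchange of the complex IV subunit IV isoform and induction of Ndufa4l2.

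On the arrays, the brighter Fh1 probe read 14.23 to 14.28 (log2 signal) in the controls, 13.98 to 14.24 in the Fh1-/- and 13.76 to 14.1 in the Fh1-/-Hif-1α-/- samples. The brighter Hif1a probe read 9.54 to 10.31, 10.16 to 10.54 and 10.19 to 11.04 in the same order, and the dimmer one 7.08 to 7.36, 7.43 to 8.46 and 6.44 to 7.4. Where these probes lie relative to the deleted exons was not worked out here, so they do not check the labels. Cells other than tubule cells keep both genes, and in the paper's staining of slightly older mice some tubules also kept Fh1. Replicates 1 and 2 of every group stood apart from replicates 3 and 4 on the second principal component (18% of the variance), a split that no label or file header gives. Xist was high on 5 arrays, unevenly over the groups: control replicate 4, Fh1-/- replicates 1 and 3 and Fh1-/-Hif-1α-/- replicates 2 and 3. Markers of several cell types moved with the genotype. The summed signal of 12 proximal tubule genes was 407066 to 501734 in the controls, 276086 to 372826 in the Fh1-/- and 233918 to 367315 in the Fh1-/-Hif-1α-/- samples, while 10 macrophage genes summed to 21163 to 28213, 34392 to 53247 and 38296 to 47616. The proximal tubule sum is weighted to its brightest genes, and bright probes of any kind were lower in both mutants, as described below. In bulk tissue fewer cells of a type and less RNA per cell cannot be told apart. The part of cell composition in the results that follow was not tested.

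The genes of all 4 complexes tended lower in both mutant groups by small amounts, which were smaller after quantile normalization (medians over all members -0.04 and -0.1, and 0.04 for complex IV in Fh1-/- kidneys). In Fh1-/- kidneys 4 of the 76 genes fell (Ndufc2, Ndufaf1, Ndufb3 and Atp5j) and none rose at an adjusted p under 0.05, against a background of 2.26% of all genes lower and 3.9% higher. The median log2 difference from control was -0.26, a 16.3% lower signal, with a median over all probes of -0.05. A negative difference was found for 71 genes (55.6% of all genes). The background of all genes is not matched for brightness, and of the other probes with a mean log2 signal of 15 or above 83.3% were negative. In Fh1-/-Hif-1α-/- kidneys 33 of the 76 fell, or 43.4%, against 8.64% of all genes lower and 10.7% higher, and none rose. There the median was -0.32, a 20% lower signal, and the median over all probes was -0.06. In the double mutants 73 differences were negative (53.7% of all genes, and 80.9% of the other probes at 15 or above). All 4 genes that fell in Fh1-/- kidneys also fell in Fh1-/-Hif-1α-/- kidneys, a comparison that shares the same 4 controls. The 4 mutant and 4 control values did not overlap, in the lower direction, for 26 genes in the single and 34 in the double mutants (background 8.13% and 9.78%). At an unadjusted p under 0.05, 47 and 60 genes were lower (background 12.4% and 17.1%). The count in Fh1-/- kidneys rested on single arrays, since it was 0 without control replicate 1, 3 or 4 or without Fh1-/- replicate 1, 2 or 3, 2 without Fh1-/- replicate 4 or Fh1-/-Hif-1α-/- replicate 4, 10 without control replicate 2 and 7 without Fh1-/-Hif-1α-/- replicate 1. The count of 33 became 19 without control replicate 1, 19 without Fh1-/-Hif-1α-/- replicate 2 and 20 without its replicate 3.

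**Figure D1:**
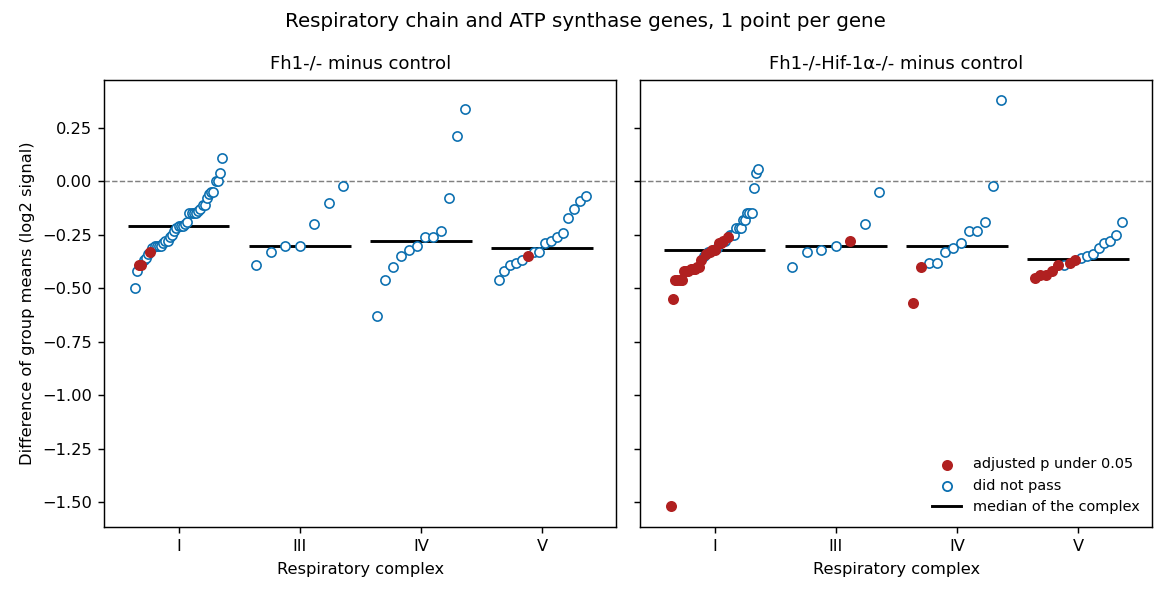
Difference of group means (log2 signal) of each of the 76 genes, ordered within each complex, for Fh1-/- minus control (left) and Fh1-/-Hif-1α-/- minus control (right); filled points passed the adjusted p of 0.05 and black lines are medians. Most points lie below 0 in both panels, and the passing genes number 4 on the left and 33 on the right.

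Complex I held most of the genes that passed: 3 of 41 fell in Fh1-/- kidneys (median -0.21) and 23 of 41 in the double mutants (median -0.32). After quantile normalization the medians were -0.07 and -0.13, with 0 and 10 genes lower. The count of 3 became 0 without control replicate 1, 3 or 4 or without Fh1-/- replicate 1, 2 or 3 and 5 without Fh1-/-Hif-1α-/- replicate 1, and the count of 23 became 12 without control replicate 1, 13 without double mutant replicate 2 and 15 without its replicate 3. Of the 8 Ndufs and Ndufv genes, which include core subunits that carry electrons from NADH to ubiquinone as well as accessory ones, 0 and 5 fell. Ndufs8, a core iron-sulfur subunit, fell by 0.41 (SE 0.09) on the log2 scale in Fh1-/-Hif-1α-/- kidneys (adjusted p = 0.0081). Ndufv3, an accessory subunit beside the NADH site, fell by 0.46 (SE 0.09, adjusted p = 0.0055). Ndufs7, the core subunit whose cluster passes electrons to ubiquinone, differed by -0.05 and -0.15 without passing. Of the 13 Ndufa subunits, accessory proteins spread over both arms, 0 and 9 fell, and Ndufa1 had the largest such fall (0.46, SE 0.11, adjusted p = 0.016).

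Ndufc2, an accessory subunit of the membrane arm, was the gene with the smallest adjusted p in Fh1-/- kidneys. Its log2 signal was 14.46, 14.4, 14.6 and 14.6 in the controls, 14, 14.12, 14.1 and 14.29 in the Fh1-/- samples and 13.81, 13.92, 14.02 and 14.11 in the Fh1-/-Hif-1α-/- samples. All 8 mutant values lay below all 4 control values, and the mutant groups overlapped each other. It fell by 23.7% in Fh1-/- kidneys (log2 -0.39, SE 0.09, adjusted p = 0.034) and by 31.8% in the double mutants (log2 -0.55, SE 0.09, adjusted p = 0.0021). The exact permutation test gave its smallest possible p of 0.029 for both. In Fh1-/- kidneys it passed in 6 of the 12 fits that left out 1 array and not after quantile normalization (adjusted p = 0.19), and its dimmer probe did not pass. In the double mutants it passed in all 12 fits and after quantile normalization (adjusted p = 0.014). Ndufc1, the other Ndufc subunit, fell only in Fh1-/-Hif-1α-/- kidneys by the test (-0.34, adjusted p = 0.023, and -0.15 with adjusted p = 0.37 in Fh1-/-), and the difference between the mutant groups did not pass for either gene.

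Ndufb subunits belong to the membrane arm, which pumps protons, and 1 of 10 fell in Fh1-/- kidneys and 5 of 10 in the double mutants. Ndufb3 read 14.07, 14.08, 14.02 and 14.23 in the controls, 13.77, 13.82, 13.69 and 13.79 in the single and 13.78, 13.54, 13.6 and 13.78 in the double mutants. It fell in both, by 0.33 (SE 0.08, adjusted p = 0.044) and 0.42 (SE 0.08, adjusted p = 0.0055). Ndufb4 read 14.13, 14.2, 14.04 and 14.16 in the controls, 13.84, 13.99, 13.63 and 13.84 in the single and 13.75, 13.62, 13.53 and 13.79 in the double mutants. No mutant value reached a control value, but only the fall of 0.46 in Fh1-/-Hif-1α-/- kidneys passed (SE 0.09, adjusted p = 0.0065), the difference in Fh1-/- kidneys being -0.31 (adjusted p = 0.08).

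Ndufb10 had the largest difference of any member and the least agreement among arrays and probes. Its brighter probe read 13.9, 13.78, 13.06 and 14.09 in the controls, 12.96, 13.62, 13.5 and 12.75 in the Fh1-/- samples and 13.08, 12.78, 11.55 and 11.35 in the Fh1-/-Hif-1α-/- samples. Replicates 3 and 4 of the Fh1-/-Hif-1α-/- group were far below replicates 1 and 2, and control replicate 3 lay below 3 mutant samples. It fell by 1.52 in the double mutants (95% interval -2.33 to -0.71, adjusted p = 0.016), and it was -0.92 within replicates 1 and 2 and -2.12 within replicates 3 and 4. The dimmer probe differed by 0.13 in the other direction (adjusted p = 0.6), so the 2 probes of this gene do not give the same reading.

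Of the 7 complex I assembly factors, 1 fell in Fh1-/- kidneys and 2 in double mutant kidneys. Ndufaf1, which helps to build the membrane arm, read 13.08, 13, 13.16 and 13.1 in the controls, 12.56, 12.75, 12.62 and 12.84 in the single and 12.76, 12.47, 12.48 and 12.78 in the double mutants. The highest mutant value, 12.84, lay below the lowest control value, 13, and the gene fell by 0.39 (SE 0.1, adjusted p = 0.044) and by 0.46 (SE 0.1, adjusted p = 0.0086). Ndufaf8 fell in Fh1-/-Hif-1α-/- kidneys (0.33, adjusted p = 0.032). Ndufaf2 and Ndufaf5 differed by at most 0.06 in either comparison. Outside the symbol prefixes, 2 and 3 of 8 further complex I assembly genes fell, with Acad9 at -0.5 and -0.87 (adjusted p = 0.032 and 0.00051) and Ecsit at -0.47 and -0.67 (adjusted p = 0.041 and 0.0025), both of the same assembly complex as Ndufaf1.

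**Figure D2:**
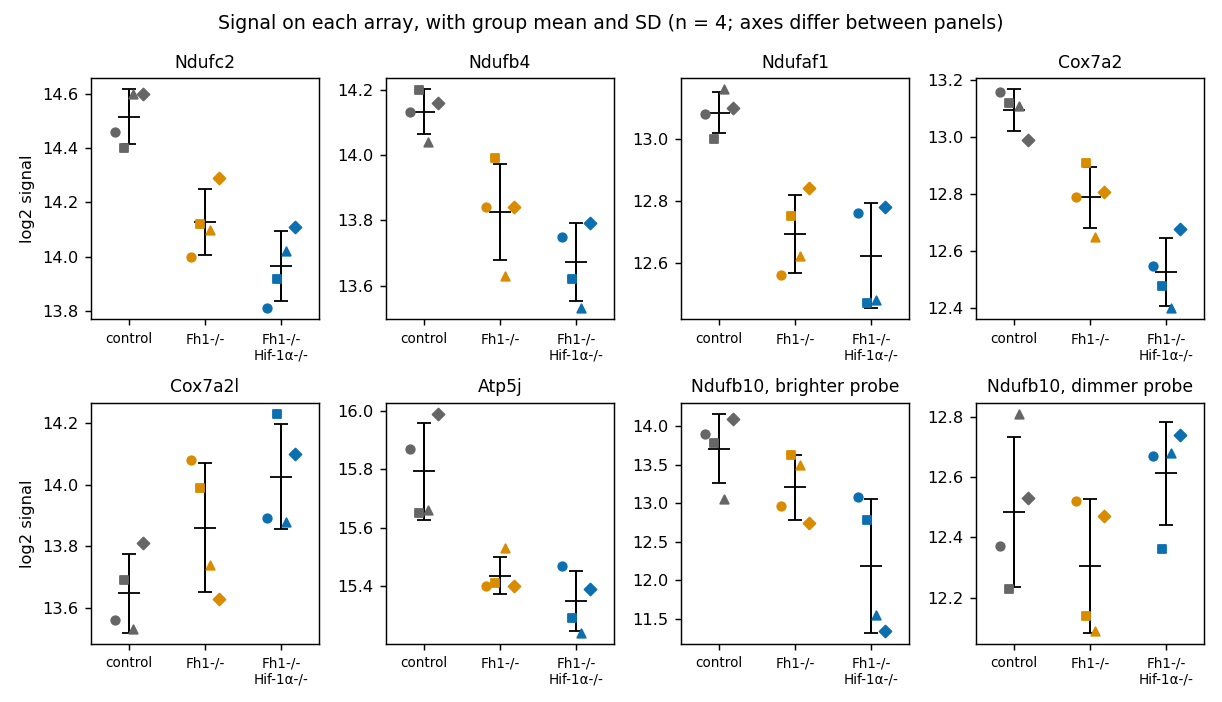
Log2 signal of 7 genes on each array (symbols mark the replicates, circle, square, triangle and diamond for 1 to 4), with the mean and SD of each group (n = 4). Ndufc2, Ndufaf1, Ndufb4, Cox7a2 and Atp5j show no overlap of controls with mutants, and the 2 probes of Ndufb10 differ in direction in the double mutants (-1.52 and 0.13).

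In complex V, 1 of 16 genes fell in Fh1-/- kidneys and 7 of 16 in the double mutants, and all 16 differences were negative in both (medians -0.31 and -0.37). After quantile normalization the medians were -0.03 and -0.12, with 0 and 2 genes lower. Leaving out 1 array gave 0 to 5 in the single mutants (5 without control replicate 2, 2 without Fh1-/-Hif-1α-/- replicate 1, 1 without its replicate 3 and 0 without any other) and 4 in place of 7 in the double mutants without their replicate 3. The 7 covered the F1 head (Atp5a1 and Atp5b, the alpha and catalytic beta subunits), the central stalk (Atp5c1 and Atp5e), the peripheral stalk (Atp5pb and Atp5j) and a small membrane subunit (Atp5md), although Atp5b stood at the threshold (-0.42, adjusted p rounded to 0.05), its groups overlapped and it passed in 2 of the 12 fits that left out 1 array. Atp5j, coupling factor 6 of the peripheral stalk, read 15.87, 15.65, 15.66 and 15.99 in the controls, 15.4, 15.41, 15.53 and 15.4 in the single and 15.47, 15.29, 15.24 and 15.39 in the double mutants. It fell by 0.35 (SE 0.09, adjusted p = 0.048) and 0.44 (SE 0.09, adjusted p = 0.0075), although its 2 dimmer probes differed by -0.07 and -0.19 in the single and by -0.1 and -0.32 in the double mutants without passing. Atp5e, the epsilon subunit, fell by 0.45 in Fh1-/-Hif-1α-/- kidneys (SE 0.1, adjusted p = 0.011), and Atp5a1 by 0.39 (SE 0.09, adjusted p = 0.009). Atp5g2 and Atp5g3 encode the same subunit c of the rotor ring, and neither passed (-0.07 and -0.46 in the single mutants, -0.19 and -0.39 in the double mutants).

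In complex IV none of 12 genes passed in Fh1-/- kidneys and 2 fell in the double mutants (medians -0.28 and -0.3, and 0.04 and -0.04 after quantile normalization), with 8 and 9 lower at an unadjusted p under 0.05. Without control replicate 2 the counts were 2 and 4, and the count in the double mutants was 1 without control replicate 4 or without double mutant replicate 2 or 3. Cox7a2, the liver-type isoform of subunit VIIa, had the smallest adjusted p of all members in the double mutants. It read 13.16, 13.12, 13.11 and 12.99 in the controls, 12.79, 12.91, 12.65 and 12.81 in the single and 12.55, 12.48, 12.4 and 12.68 in the double mutants. The controls stood above both mutant groups, and 3 of the 4 double mutants stood below every Fh1-/- sample. It fell by 32.4% (log2 -0.57, SE 0.09, adjusted p = 0.0013) in the double mutants and differed by -0.3 in Fh1-/- kidneys (adjusted p = 0.072). Cox7b, a small structural subunit, read 13.87, 14.04, 13.79 and 14.23 in the controls, 14, 14.06, 13.85 and 13.69 in the single and 13.61, 13.62, 13.45 and 13.65 in the double mutants. Here the Fh1-/- samples spread among the controls (-0.08, adjusted p = 0.73), while the double mutants lay below both other groups and fell by 0.4 against control (adjusted p = 0.031).

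Cox7a2l, a paralog of Cox7a2, had the highest difference of any member in the double mutants. Ndufaf5 (0.06) and Ndufa7 (0.04) were the other positive ones there. Whether the Cox7a2l protein is made or works in this strain was not examined. The Cox7a2l probe read 13.56, 13.69, 13.53 and 13.81 in the controls, 14.08, 13.99, 13.74 and 13.63 in the single and 13.89, 14.23, 13.88 and 14.1 in the double mutants. The double mutants stood above the controls without overlap, the only such gene among the 76 (background 12.2%), with a difference of 0.38 (95% interval 0.11 to 0.64) that missed the threshold at an adjusted p of 0.053. In Fh1-/- kidneys the difference was 0.21 (adjusted p = 0.34). It passed as higher in the double mutants after quantile normalization (0.48, adjusted p = 0.017) and with the values as deposited.

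Among the other complex IV subunits, Cox4i1 differed by -0.35 and -0.31, Cox5a by -0.26 and -0.23, Cox5b by -0.32 and -0.33, Cox6a1 by -0.26 and -0.23, Cox6b1 by -0.4 and -0.38 and Cox6c by -0.23 and -0.29, none of which passed. Ndufa4, the complex IV subunit that Ndufa4l2 resembles, differed by -0.46 (adjusted p = 0.076) and -0.38 (adjusted p = 0.083). The tissue-specific isoforms were dim and their groups overlapped. Cox6a2, the heart and muscle isoform, differed by -0.63 in the single (95% interval -1.19 to -0.06, adjusted p = 0.18) and -0.19 in the double mutants. Cox6b2, the testis isoform, differed by 0.34 and -0.02.

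Complex III, the smallest of the complexes, had the fewest passing genes, 0 of 7 in the single and 1 of 7 in the double mutants. As a share the latter was 14.3%, close to the 16.7% of complex IV. The median of complex III was -0.3 in both (-0.03 and -0.04 after quantile normalization, with none lower). Uqcrc2, a core protein on the matrix side, read 15.82, 15.72, 15.81 and 15.9 in the controls, 15.39, 15.51, 15.5 and 15.66 in the single and 15.53, 15.42, 15.46 and 15.73 in the double mutants. It fell in the double mutants by 0.28 (SE 0.09, adjusted p = 0.049), with double mutant replicate 4 just above the lowest control, and passed in 2 of the 12 fits that left out 1 array. In Fh1-/- kidneys, where the groups did not overlap, the difference was -0.3 (adjusted p = 0.072). The small subunits Uqcr10 (-0.39 and -0.33), Uqcrh (-0.33 and -0.32) and Uqcr11 (-0.3 and -0.3) had differences of similar size that did not pass. Uqcrfs1, the Rieske iron-sulfur protein, differed by -0.02 and -0.05 on a dim probe. Uqcrq fell into separate levels: 8.91 and 9 in Fh1-/-Hif-1α-/- replicates 1 and 2 and 9.13 in Fh1-/- replicate 1, against 9.87 to 10.34 on the other 9 arrays.

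No gene of the 4 complexes passed between Fh1-/-Hif-1α-/- and Fh1-/- kidneys, where 0.081% of all genes were lower and 0.186% higher. The median difference was -0.08 with 57 of 76 negative (46.9% of all genes), and at an unadjusted p under 0.05 4 members were lower (background 3.99%): Cox7a2, Cox7b, Ndufb2 and Ndufb10. Cox7a2 differed by -0.26 (95% interval -0.46 to -0.07, adjusted p = 0.34), Cox7b by -0.31 (-0.56 to -0.07, adjusted p = 0.39) and Ndufb2 by -0.27 (-0.49 to -0.05, adjusted p = 0.43). By complex the medians were -0.1 (I), 0 (III), 0.02 (IV) and -0.08 (V). The larger count of falls in the double mutants was not matched by a tested difference between the mutants, and intervals of this width do not show that they are alike.

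The same small shift was seen array by array. The median of complex I genes relative to the control mean was -0.17 to -0.24 on the Fh1-/- arrays and -0.25 to -0.36 on the Fh1-/-Hif-1α-/- arrays, with the controls at -0.08 to 0.13, so that the mutants lay below the controls and met each other within 0.01. The median log2 signal itself overlapped between neighbouring groups, at 14.32 to 14.48, 14.17 to 14.4 and 14.46 to 14.68 in the same order. For complex V the ranges were -0.25 to -0.34, -0.25 to -0.46 and -0.08 to 0.2. For complex III they were -0.15 to -0.46, -0.16 to -0.4 and -0.15 to 0.09, and for complex IV -0.15 to -0.41, -0.21 to -0.39 and -0.19 to 0.23, so that the lowest control array reached the highest mutant arrays. Within replicates 1 and 2 the median of all members was -0.23 in Fh1-/-Hif-1α-/- kidneys, and within replicates 3 and 4 it was -0.4.

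**Figure D3:**
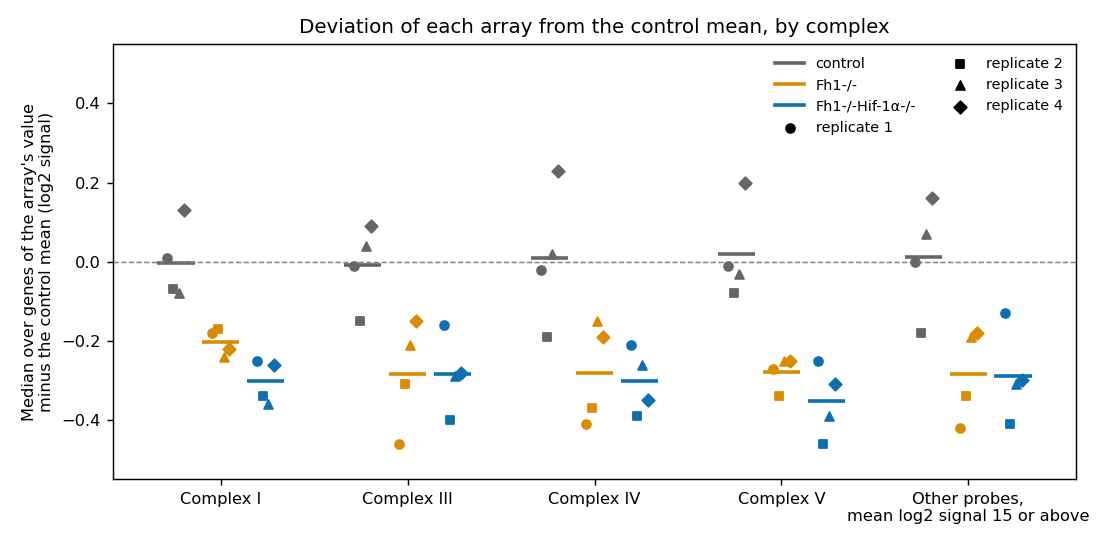
Median over the genes of each complex, and over all other probes of mean log2 signal 15 or above, of an array's value minus the control mean (log2 signal); 1 symbol per array and lines at group means. For complex I the mutant arrays lie below the controls, with the highest double mutant array (-0.25) next to the lowest Fh1-/- array (-0.24), while for complexes III and IV the mutant arrays mix, as they do for the other bright probes.

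Many of these probes are among the brightest on the array, where signal may be compressed, and bright probes of any kind were lower in both mutants. The 29 members with a mean log2 signal of 15 or above had median differences of -0.33 in the single and -0.33 in the double mutants, beside -0.31 and -0.3 for the 324 other probes in that range. Of the other probes in that range 8.64% and 25.3% were lower by the test, and of the members 3.45% and 41.4%. The 20 members at 14 to 15 had medians of -0.19 and -0.27, beside -0.14 and -0.16 for the others, and 5% and 50% of them fell, against 5.91% and 23.2%. The 16 members at 12 to 14 had medians of -0.14 and -0.39, beside -0.06 and -0.08 for the others, and 12.5% and 56.2% of them fell, against 3.18% and 15.1%. At 10 to 12 there were 5 members (medians -0.3 and -0.33 beside 0 and -0.02), of which 0% and 40% fell against 2.32% and 9.68%, and none of the 6 members under 10 passed. Quantile normalization, which gives every array the same distribution, left 0 members lower in Fh1-/- kidneys (median -0.04) and 13 in the double mutants (median -0.1). After it 48 members had a negative difference in the single and 61 in the double mutants. The 13 that passed as lower were 10 genes of complex I, 1 of IV and 2 of V, and 12 of them lay under 15. They were Ndufb2, Ndufb3, Ndufb4, Ndufb7, Ndufb10, Ndufc2, Ndufs8, Ndufv3, Ndufaf1, Ndufaf8, Cox7a2, Atp5e and Atp5j, and the same 13 passed under all 4 scalings tried. Of the 13, 11 passed in every one of the 12 fits that left out 1 array, Ndufaf8 and Ndufb7 being the exceptions, and Ndufb10 passed only narrowly without control replicate 1, at an adjusted p that rounds to 0.05.

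**Figure D4:**
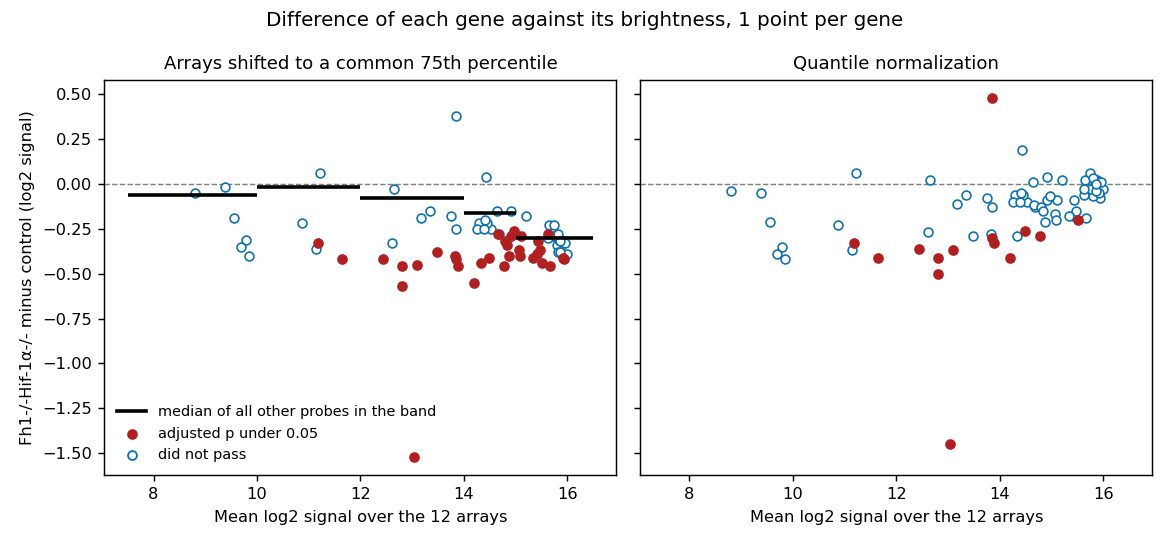
Fh1-/-Hif-1α-/- minus control (log2 signal) of each gene against its mean log2 signal over the 12 arrays, after the shift to a common 75th percentile (left) and after quantile normalization (right). Black lines on the left are the medians of all other probes per brightness band, -0.3 at 15 and above; on the right the brightest genes lie near 0 and 13 genes pass as lower, 1 as higher.

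Genes with several probes gave a further reading. The second probe had the sign of the brightest one in 23 of 26 genes in the single and 24 of 26 in the double mutants, with smaller medians (-0.15 beside -0.29, and -0.28 beside -0.34). Probes of a gene differed in their call for Atp5a1, Atp5j, Atp5pb, Ndufa3, Ndufa5, Ndufab1, Ndufb10, Ndufc2 and Ndufv3. For Ndufab1, the mitochondrial acyl carrier protein, the second probe fell in Fh1-/- kidneys (-0.32, adjusted p = 0.035) and the brightest did not pass (-0.26, adjusted p = 0.093), while all 4 of its probes fell in Fh1-/-Hif-1α-/- kidneys.

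Other mitochondrial genes were counted from lists of the pathway, to be read beside the 2.26% and 8.64% of all genes that were lower. In single and double mutants, 0 and 1 of 8 complex II genes fell (Sdhaf4, -0.34 in the double mutants, adjusted p = 0.012), and 0 and 1 of 3 genes of cytochrome c and its complex III partner (Cyc1, -0.28, adjusted p = 0.046). Of 25 assembly genes of complexes III and IV, 1 and 4 fell, with Cox15, needed for heme A, at -0.42 in both (adjusted p = 0.045 and 0.021) and Coa6, which helps to deliver copper to complex IV, at -0.64 in the double mutants (adjusted p = 0.015). Higd1a, a hypoxia-inducible protein of the respiratory chain, rose by 1.09 in Fh1-/- kidneys (adjusted p = 0.0029), was 0.16 above control in the double mutants (adjusted p = 0.54), and was lower by the test between the mutants (-0.92, adjusted p = 0.049). Of 3 ATP synthase assembly or inhibitor genes 0 and 1 fell (Tmem70, -0.49, adjusted p = 0.018). Of 15 regulators of respiratory genes 0 and 2 fell, Esrra, a nuclear receptor that drives oxidative genes, by 0.41 (adjusted p = 0.0092) and Tfb2m, a mitochondrial transcription factor, by 0.33 (adjusted p = 0.029). Of 20 genes taken as a reading of mitochondrial mass 0 and 5 fell, among them Letm1 (-0.44, adjusted p = 0.042), Hspd1 (-0.42, adjusted p = 0.034) and Vdac1 (-0.38, adjusted p = 0.028). Some genes of these lists had positive differences that did not pass, among them Pprc1, a coactivator related to PGC-1α (0.55 and 0.34, adjusted p = 0.067 and 0.16), and Cs, citrate synthase (0.21 and 0.2, adjusted p = 0.3 and 0.23).

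Against 2.26% and 8.64% of all genes lower and 3.9% and 10.7% higher, marker lists moved as follows. Of the nephron segments rich in mitochondria, 3 and 8 of 12 proximal tubule genes fell, 2 and 3 of 6 thick ascending limb genes and 3 and 4 of 4 distal convoluted tubule genes. Principal cell genes of the collecting duct rose (2 and 6 of 6), as did 6 and 9 of 10 macrophage and 3 and 3 of 8 fibroblast genes. Of 5 intercalated cell genes 1 rose and 1 fell in the single and 1 rose and 2 fell in the double mutants. Of 7 endothelial genes 1 rose in the single and 1 fell in the double mutants. Of 3 podocyte genes 0 and 1 fell, of 4 lymphocyte genes 0 and 1 rose, and of 2 red cell genes none passed. The 1 striated muscle gene measured rose in the double mutants only. Of 6 fat genes 0 and 3 rose. Their summed signals were 5701 to 8850 in the controls, 6976 to 17598 in the single and 7534 to 53949 in the double mutants. Among them, Cox8b, set aside from the complex IV genes, differed by 1.9 and 2.73 (adjusted p = 0.16 and 0.025). Cox7a1, also set aside, differed by -0.12 and -0.15 without passing. The part of these cell types in the shift of the respiratory genes was not tested.

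Promoter windows of 250 bases before to 50 after the transcription start were taken from RefSeq (GRCm38.p6) and matched to 66 of the 76 genes. They were searched on both strands for the letters of factors known to act on respiratory genes. GCGCNTGCG (nuclear respiratory factor 1, NRF1) was in 21 of 66 windows, 31.8%, beside 6.59% of all 27025 promoters and 12.8% of the 9948 promoters of genes on the array. CCGGAAG (GABPA) was in 22.7%, beside 9.12% and 16.7%, and AAGATGGCG (YY1) in 10.6%, beside 1.49% and 3.01%. The hypoxia response core, ACGTG or GCGTG, was in 63.6%, beside 43.8% and 60.3%, the antioxidant response core TGACNNNGC in 15.2%, beside 12.5% and 14.5%, and CAAGGTCA (ERRα) in 3.03%, beside 1.53% and 1.09%. Of the 30 matched genes that fell in Fh1-/-Hif-1α-/- kidneys 6 held the NRF1 letters and 19 the hypoxia core, and of the 36 that did not pass 15 and 23. A match describes the letters only. Shown are Ndufb4, which passed under every scaling and holds 3 NRF1 matches, Ndufs6, a zinc-binding subunit that fell by 0.41 and holds both NRF1 and YY1 letters, and the paralogs Cox7a2, which fell, and Cox7a2l, with its positive difference. Capitals mark matches to the NRF1, YY1 and hypoxia core letters on either strand, and the first hypoxia core of Ndufb4 lies within an NRF1 match. Cox7a2 holds 1 hypoxia core only, and Cox7a2l none of the letters in capitals.
Ndufb4, chr16:37654319-37654618, minus strand: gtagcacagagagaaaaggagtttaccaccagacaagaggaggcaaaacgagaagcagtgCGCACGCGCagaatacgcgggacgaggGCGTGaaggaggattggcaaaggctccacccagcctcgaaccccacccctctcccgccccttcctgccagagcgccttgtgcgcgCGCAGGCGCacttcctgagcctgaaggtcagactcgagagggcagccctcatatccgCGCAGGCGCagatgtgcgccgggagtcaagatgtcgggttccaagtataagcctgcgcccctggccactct
Ndufs6, chr13:73328433-73328732, minus strand: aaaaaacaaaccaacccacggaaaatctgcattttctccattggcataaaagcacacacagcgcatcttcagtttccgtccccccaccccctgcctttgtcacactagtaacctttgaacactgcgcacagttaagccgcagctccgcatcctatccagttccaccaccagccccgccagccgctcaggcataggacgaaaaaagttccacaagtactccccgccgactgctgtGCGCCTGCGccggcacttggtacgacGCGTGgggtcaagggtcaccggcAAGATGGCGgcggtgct
Cox7a2, chr9:79759804-79760103, minus strand: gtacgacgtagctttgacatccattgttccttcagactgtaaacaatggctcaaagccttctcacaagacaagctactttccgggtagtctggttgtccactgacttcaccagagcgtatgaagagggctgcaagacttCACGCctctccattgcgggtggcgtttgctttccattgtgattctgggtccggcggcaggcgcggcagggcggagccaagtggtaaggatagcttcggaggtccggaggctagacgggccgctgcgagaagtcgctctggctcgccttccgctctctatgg
Cox7a2l, chr17:83514284-83514583, minus strand: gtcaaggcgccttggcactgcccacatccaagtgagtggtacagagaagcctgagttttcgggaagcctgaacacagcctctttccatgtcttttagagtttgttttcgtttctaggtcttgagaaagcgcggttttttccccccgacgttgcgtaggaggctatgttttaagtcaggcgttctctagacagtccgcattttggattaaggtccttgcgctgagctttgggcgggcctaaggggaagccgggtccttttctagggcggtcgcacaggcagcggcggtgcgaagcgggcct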

How the data were processed

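RNA of 12 mice was measured on 12 Illumina MouseWG-6 v2 bead arrays. The authors extracted signals in GenomeStudio and scaled them by their 75th percentiles in GeneSpring. The deposited values used here are log2 signals per probe. Their 75th percentiles still differed (11.06 to 11.12), so the arrays were moved to 1 shared 75th percentile. The filter that chose the 23863 probes is not given in the sources used here, and 24 columns of signals and detection p-values whose names match no sample were not used, so detection could not be read. The number of arrays limits the precision, and p-values measure the spread between these mice.

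The 3 groups were fitted together in limma 3.58.1 (R 4.3.3; lmFit, contrasts, eBayes with a trend), with Benjamini-Hochberg adjustment over all 23863 probes and a threshold of 0.05. The fit was tested on simulated data. Exact permutation tests were two-sided, over 70 arrangements with a smallest p of 0.029. Probes were named by the platform annotation: 19906 had 1 symbol, 9 several and 3948 none. Genes named in the text were, per complex and pair of groups, up to 6 passing members with the largest difference (or the 3 largest where fewer than 3 passed), the isoform pairs and genes whose probes differ in call, and up to 3 passing genes of each pathway list. Other members named and the promoters shown were chosen after their values were seen. Members and lists were chosen with earlier results of these data known. Coordinates are those of the promoter table's build.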

Additional observations from a re-analysis of the deposited data

Results flagged for a closer look

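In 5 of 135 groups of 4 arrays 1 array stood apart from the other 3 by Dixon's criterion, which chance meets in about 1 group in 20. Atp5j read 15.53 in Fh1-/- replicate 3, against 15.4 to 15.41 in the other Fh1-/- samples. Ndufa3 read 15.24 in control replicate 4 (the others 14.99 to 15.02) and 14.94 in Fh1-/-Hif-1α-/- replicate 1 (the others 14.71 to 14.72), and Ndufa5 read 15.19 in control replicate 4 (14.9 to 14.92). The median log2 signal of all members was 14.63 in control replicate 3, against 14.8 to 14.83 in the other controls. By the median deviation of all members from the control mean it did not stand apart (-0.05, with control replicate 2 at -0.08). Control replicate 4 was above the other controls in that deviation, at 0.17.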

How the results depend on the processing

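Of the counts and medians over all members, 224 values were unchanged within their limits under the alternatives and 55 moved. A count of 0 that stayed at 0 was taken as unchanged. A median was unchanged within 0.022 for Fh1-/- against control and 0.059 for the other comparisons. No median over all members changed sign, which a count cannot do. By complex 925 values were unchanged and 191 moved, and the complex IV median in Fh1-/- kidneys went from -0.28 to 0.04 after quantile normalization. Compression of bright signals, the scaling between arrays and the small number of arrays limit the differences near 0.3. The cause of the changes below was not tested.

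The count of members lower in Fh1-/- kidneys was 4. It was 0 after quantile normalization, with the values as deposited, within replicates 1 and 2, within replicates 3 and 4, at an adjusted p of 0.01 and with a fold of at least 2. It was 1 without a variance trend, 2 with equal medians, 2 with only probes under 14, 7 with Xist as a covariate, 9 with only probes above the median signal, 15 with the split of replicates 1 and 2 from 3 and 4 as a block, 17 with array weights and 46 by the plain test without adjustment. Leaving out 1 array gave 0 to 10. The median of -0.26 became -0.04 after quantile normalization, -0.22 as deposited, -0.2 with the second probe, -0.22 over all probes and -0.15 under 14, and leaving out 1 array gave -0.29 to -0.23.

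The count of members lower in Fh1-/-Hif-1α-/- kidneys was 33. It was 13 after quantile normalization, 47 with that split as a block, 58 by the plain test without adjustment, 8 within replicates 1 and 2, 0 within replicates 3 and 4 (51 at an unadjusted p under 0.05), 15 under 14, 11 at an adjusted p of 0.01 and 1 with a fold of at least 2. Leaving out 1 array gave 19 to 35. Members higher numbered 1 in place of 0 after quantile normalization, as deposited, by the plain test without adjustment, with array weights, with that split as a block and above the median signal, and 0 to 1 when 1 array was left out. The median of -0.32 became -0.1 after quantile normalization, -0.23 within replicates 1 and 2 and -0.4 within replicates 3 and 4, and leaving out 1 array gave -0.37 to -0.27. Between the mutants 6 members were lower by the plain test without adjustment and 0 otherwise, with the median at -0.12 to -0.05.

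Over all probes the deposited values gave 337 lower and 910 higher in Fh1-/- kidneys in place of 461 and 726, and 1500 and 2353 in place of 1902 and 2057 in Fh1-/-Hif-1α-/- kidneys. Ndufb10 by its second probe was 0.13 in Fh1-/-Hif-1α-/- kidneys in place of -1.52.

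The replicate numbers were not shown to pair samples. After each group's mean was subtracted, same-numbered arrays of different groups correlated at -0.31 to 0.5, and 6 of 12 pairs exceeded 0.1. The split of replicates 1 and 2 from 3 and 4 was taken from the replicate numbers and the second principal component, and no label or header gives it. With the replicate number as a block, 11 members were lower in the single and 44 in the double mutants. In 6 of the 12 pairs an array correlated best with its own number among the arrays of the other group.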
